A study of Mus musculus with 6 samples.

Results

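Cytochrome P450 enzymes of families 1 to 4 were followed in colon epithelium of Sel1L knockout and wild type mice. The members were all genes with a probe set of their own on the array whose symbol is Cyp, a family number from 1 to 4, a single letter and a number, which gave 65 of the 19936 genes measured, in 20 subfamilies. The arrays came from 3 Sel1L knockout and 3 wild type samples of male C57BL/6J mice aged 8 weeks. In the knockout, a Cre recombinase driven by the villin promoter, which is active in intestinal epithelial cells, removed exon 6 of Sel1l. The labels do not say whether the wild type mice carried the floxed allele or Cre, nor whether the arrays come from different mice, so p-values here rest on array-to-array spread that may be technical. The floxed allele came from KOMP embryonic stem cells and had lost its lacZ-neo cassette through a FLPe deleter strain. The Vil-cre line had been backcrossed to C57BL/6J, and cells without villin activity kept an intact Sel1l.

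P450 enzymes are heme proteins held in the membrane of the endoplasmic reticulum, where they insert oxygen into their substrates with electrons passed on by P450 reductase and cytochrome b5. Families 1, 2 and 3 handle mainly drugs, dietary chemicals and steroids, and family 4 mainly fatty acids and eicosanoids. In the intestine they meet compounds from food and bacteria, and many of their genes answer to receptors such as AHR, PXR and PPARα. Sel1L serves the degradation of proteins from the same membrane system, as adaptor of the ubiquitin ligase Hrd1.

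Levels are given as RMA log2 values, on which a difference of 1 is 2-fold, and all differences are knockout minus wild type with the standard error (SE) of limma. A gene was called at a Benjamini-Hochberg adjusted p under 0.05 over all genes. The array medians lay between 6.32 and 6.36, and pairs of arrays correlated across genes, as a description only, at 0.993 to 0.997. Sel1l itself fell to 8.81 ± 0.22 in knockout arrays, against 9.55 ± 0.11 in wild type arrays (SD, n = 3 each), with limma's adjusted p = 0.018 and an exact two-sided permutation p = 0.1, the smallest that 3 against 3 arrays allow. It stayed called without knockout array 2 or wild type array 3 and not without any of the other 4 arrays (adjusted p up to 0.087). All 8 measured pan-epithelial markers and all 10 absorptive colonocyte markers lay above the array median, against 1 of 9 macrophage and dendritic cell, 1 of 7 T cell, none of 6 B and plasma cell, 1 of 6 smooth muscle and 3 of 7 fibroblast markers.

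Of the 65 P450 genes, 3 were called and all 3 were lower in the knockout, Cyp2d12, Cyp2d10 and Cyp3a13. Over all genes 1.63% were called in either direction, 0.712% lower and 0.918% higher. At an unadjusted p under 0.05 there were 14 members lower and 5 higher, against 5.62% and 7.72% of all genes. The groups did not overlap in 13 members that were lower and 5 that were higher in the knockout, against 7.98% and 11.4% of all genes. The median difference was -0.08 over the members and 0.02 over all genes.

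Start regions of 5 members are shown first, so that Cyp2d genes that differed in direction can be read side by side. Windows of 250 bases before to 50 bases after the annotated start, from RefSeq on GRCm38.p6, were available here for 53 of the 65 members, among them Cyp2d10 and Cyp3a13, which were called, Cyp2d9 and Cyp2d26, which read lower without a call, and Cyp2d40, which read higher without a call. Cyp2d12, which was called, and Cyp2d13, Cyp2d22 and Cyp2d34 are not among the 53, so their start regions are not shown. Capitals mark CTTTATAAGG, the longest string shared by the 5 Cyp2d windows, and CAGAGNACAAAG, the longest shared string when 1 inner base (N) is left free.
Cyp2d10, chr15:82407145-82407444, minus strand: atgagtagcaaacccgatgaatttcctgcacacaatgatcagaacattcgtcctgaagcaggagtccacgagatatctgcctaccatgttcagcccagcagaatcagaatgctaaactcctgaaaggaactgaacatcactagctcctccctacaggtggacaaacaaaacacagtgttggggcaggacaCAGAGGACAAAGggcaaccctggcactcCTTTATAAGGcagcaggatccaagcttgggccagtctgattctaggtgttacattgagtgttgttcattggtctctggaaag
Cyp2d9, chr15:82452127-82452426, plus strand: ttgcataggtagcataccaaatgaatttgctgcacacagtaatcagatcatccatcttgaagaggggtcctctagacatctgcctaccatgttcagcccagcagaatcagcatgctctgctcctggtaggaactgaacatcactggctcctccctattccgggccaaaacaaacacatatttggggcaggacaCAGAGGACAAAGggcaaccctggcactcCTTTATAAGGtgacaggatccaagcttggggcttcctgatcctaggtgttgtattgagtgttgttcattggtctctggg
Cyp2d26, chr15:82794196-82794495, minus strand: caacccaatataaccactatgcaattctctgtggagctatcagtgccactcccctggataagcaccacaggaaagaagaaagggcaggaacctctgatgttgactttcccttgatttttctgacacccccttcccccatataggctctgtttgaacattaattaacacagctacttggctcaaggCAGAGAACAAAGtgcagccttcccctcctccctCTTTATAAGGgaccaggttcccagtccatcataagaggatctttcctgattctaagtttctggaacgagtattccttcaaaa
Cyp2d40, chr15:82764073-82764372, minus strand: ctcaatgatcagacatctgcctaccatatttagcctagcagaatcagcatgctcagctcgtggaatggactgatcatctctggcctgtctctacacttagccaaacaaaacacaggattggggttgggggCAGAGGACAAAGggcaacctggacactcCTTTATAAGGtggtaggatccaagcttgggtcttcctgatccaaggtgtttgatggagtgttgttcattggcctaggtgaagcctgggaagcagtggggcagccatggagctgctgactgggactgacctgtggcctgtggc
Cyp3a13, chr5:137921570-137921869, minus strand: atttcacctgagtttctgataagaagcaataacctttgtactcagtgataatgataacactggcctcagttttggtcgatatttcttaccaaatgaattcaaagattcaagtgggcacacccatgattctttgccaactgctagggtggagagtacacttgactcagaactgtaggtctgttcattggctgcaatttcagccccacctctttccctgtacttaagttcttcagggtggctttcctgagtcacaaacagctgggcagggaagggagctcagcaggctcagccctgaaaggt

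Both strings lay in the windows of Cyp2d9, Cyp2d10, Cyp2d11, Cyp2d26 and Cyp2d40 and in those of no other member. Since they were read from these windows, their presence there is a description. With both strands searched, CTTTATAAGG was found in 0.0974% and CAGAGNACAAAG in 0.07% of the 32851 windows of all genes. CTTTATAAGG began 32 bases before the start of Cyp2d10, 29 before that of Cyp2d9, 32 before that of Cyp2d26 and 92 before that of Cyp2d40. In Cyp2d11 it began 44 bases before the start, with a second copy on the other strand 19 bases before it, and CAGAGNACAAAG began 72 bases before it. CAGAGNACAAAG began 60 bases before the start of Cyp2d10, 57 before that of Cyp2d9, 65 before that of Cyp2d26 and 120 before that of Cyp2d40. Cyp3a13 held neither string. Whether these positions bear on the levels was not tested. After global alignment and as a share of 300 bases, the window of Cyp2d9 was identical to that of Cyp2d10 at 85%. It was identical to that of Cyp2d11 at 89% and to that of Cyp2d40 at 66.3%. In Cyp2d40 both strings lay further from the annotated start than in Cyp2d9 (92 against 29 bases for CTTTATAAGG). The windows of these genes therefore cover offset stretches, and the 66.3% cannot separate this offset from differences in sequence. Windows of the Cyp2d genes aligned with that of Cyp3a13 at 57.7% to 61.7%, and the window of Cyp2d26 lay close to this level against the other Cyp2d windows, at 57.3% to 63.3%. The HNF4 motif CAAAGTCCA was found in 6 of the 53, namely Cyp2c65, Cyp2c67, Cyp2c68, Cyp2c70, Cyp3a11 and Cyp3a16, against 0.475% of all windows. The AHR core GCGTG was found in 12, Cyp1a1 and Cyp1b1 included, against 32.4% of all windows. The TATA box letters TATAAA, which overlap CTTTATAAGG on the other strand, were in 22 of the 53, against 13.6% of all windows. The ER stress element, CCAAT and CCACG with 9 bases between, and the C/EBP-ATF element TGATGNAAT were in no member window and in 0.119% and 0.965% of all windows. AGGTCA was in 15 member genes and 16.3% of all windows, AGTTCA in 5 and 14%, and AGGTCA repeated after 1 base in none and 0.0396%. Members were counted as genes with a match in any of their windows (60 windows for the 53), and the background as single windows. The member counts and background shares are therefore not in the same unit. These motifs can overlap one another, and a match is a run of letters rather than a tested binding site.

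The array median served as a common mark for all probe sets, not as a limit of detection. Above it, by the mean over all arrays, lay 23 of the 65 P450 genes (35.4%), against 54.7% of all genes. They were 8 of the 9 Cyp2d genes (all but Cyp2d11), 4 of 13 in Cyp2c (Cyp2c55, Cyp2c65, Cyp2c66 and Cyp2c68), 4 of 8 in Cyp4f (Cyp4f13, Cyp4f14, Cyp4f16 and Cyp4f40), 1 of 6 in each of Cyp2j (Cyp2j6) and Cyp3a (Cyp3a13), and the lone members Cyp2f2, Cyp2r1, Cyp2s1, Cyp2w1 and Cyp4b1. No member of Cyp1a, Cyp1b, Cyp2a, Cyp2b or Cyp4a was above it. On every array 22 of these 23 exceeded the median of their own array, and Cyp2c68 did so on 5 of 6. Nearest to the mark, at a mean of 6.34, were Cyp2r1 above it (6.59) and Cyp2u1 and Cyp2e1 below it (6.32 and 6.16).

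Of the 23 members above the median, 20 differed negatively and 3 positively, with a median of -0.23, and the 3 called genes were all among them. Among all 10914 genes above the median 48.1% differed negatively, with a median of 0.01. Called genes lay mostly above the median over all genes too. There 169 were called higher and 130 lower, against 14 higher and 12 lower among the genes not above it. Of the 42 members not above it, 20 differed negatively and 22 positively, with a median of 0.03. Without the Cyp2d genes, 13 of the other 15 members above the median still differed negatively, with a median of -0.20. The plot of changes by subfamily separates members above and not above the median.

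**Figure D1:**
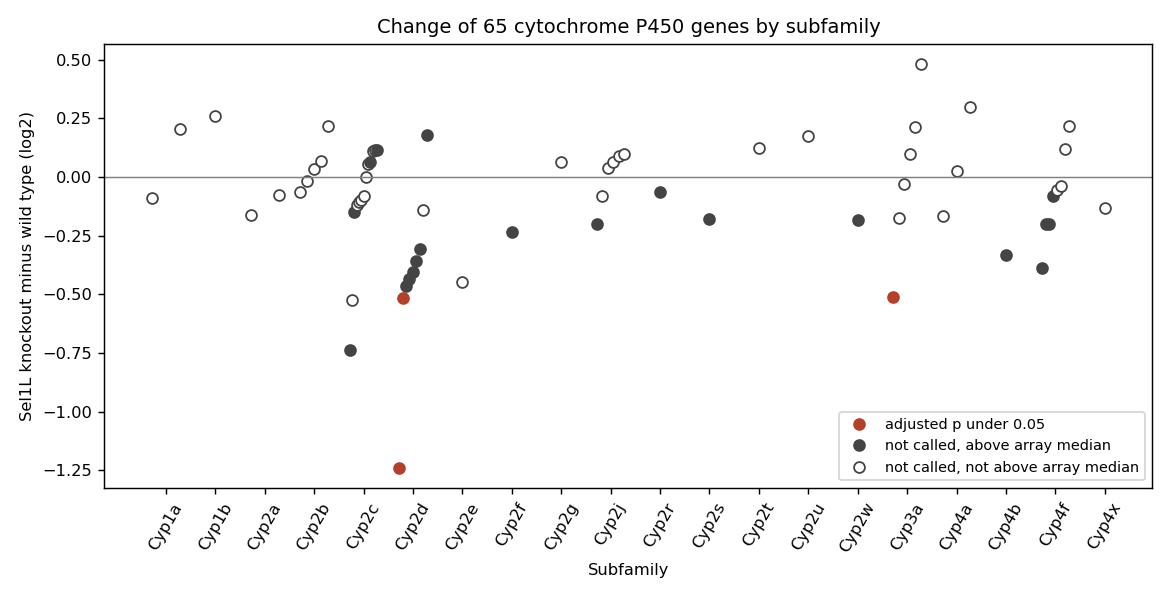
Difference between knockout and wild type means (log2, vertical axis) for each of the 65 P450 genes, by subfamily. Red points were called, dark points lay above the array median without a call and open points did not lie above it. The Cyp2d points sit below 0 with the exception of Cyp2d40, and Cyp2d12 is the lowest point at -1.24.

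The Cyp2d subfamily oxidises amine drugs and steroids in the liver, and Cyp2d22 is often set beside human CYP2D6. Of its 9 genes 2 fell, 5 more had an unadjusted p under 0.05 in the same direction, and the median difference of -0.41 was the lowest among the subfamilies with at least 3 members. Cyp2d12 read 6.60, 6.81 and 7.43 in knockout arrays 1 to 3, against 8.37, 8.19 and 7.98 in wild type arrays 1 to 3. Every knockout array lay below every wild type array, and the wild type mean was 2.36-fold higher (difference -1.24 ± 0.20, limma's adjusted p = 0.023). Cyp2d10 read 6.64, 6.73 and 6.43 in knockout arrays, against 7.13, 7.16 and 7.05 in wild type arrays. These groups were also apart, by more than the spread within either (difference -0.52 ± 0.08, limma's adjusted p = 0.025).

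Cyp2d34 read 9.14, 9.29 and 9.49 in knockout arrays, against 9.67, 9.72 and 9.75 in wild type arrays, and was not called (-0.41 ± 0.09, adjusted p = 0.079). Cyp2d13, which RefSeq lists as a transcribed pseudogene, read 7.92, 8.13 and 8.20 in knockout arrays, against 8.39, 8.42 and 8.52 in wild type arrays (-0.36 ± 0.08, adjusted p = 0.093). Cyp2d22 read 8.72, 8.996 and 8.69 in knockout arrays, against 9.43, 9.32 and 9.05 in wild type arrays (-0.46 ± 0.12, adjusted p = 0.12). In these 3 genes each knockout array was below each wild type array although the adjusted p missed the threshold. Cyp2d9, a testosterone 16α-hydroxylase of male mouse liver, read 6.56, 6.79 and 6.98 in knockout arrays, against 7.12, 7.07 and 7.06 in wild type arrays (-0.31 ± 0.10, adjusted p = 0.23). Cyp2d26 read 9.38, 9.47 and 9.26 in knockout arrays, against 10.16, 9.80 and 9.46 in wild type arrays (-0.43 ± 0.16, adjusted p = 0.27). Wild type array 3 of Cyp2d26 fell within the knockout range, whereas Cyp2d9 showed no overlap. Cyp2d11, the member below the array median, differed by -0.14 ± 0.07 (adjusted p = 0.45).

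Cyp2d40 differed the other way, at 6.85, 6.90 and 6.90 in knockout arrays, against 6.62, 6.72 and 6.77 in wild type arrays (0.18 ± 0.06, adjusted p = 0.26). Its groups did not overlap, and it was not called. The transcribed pseudogene Cyp2d37-ps, outside the naming pattern of the members, read 8.34, 8.42 and 8.40 in knockout arrays, against 7.73, 7.44 and 8.36 in wild type arrays (0.54 ± 0.20, adjusted p = 0.27). In the RefSeq order Cyp2d37-ps is the measured neighbour before Cyp2d40, and both stand between Cyp2d13 and Cyp2d26. The nearest measured genes outside the cluster were Pheta2, Smdt1 and Ndufa6 on the Cyp2d22 side and Tcf20, Tbrg3 and Nfam1 on the Cyp2d26 side. Their differences ran from -0.17 (Tbrg3) to 0.22 (Smdt1), with none called.

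**Figure D2:**
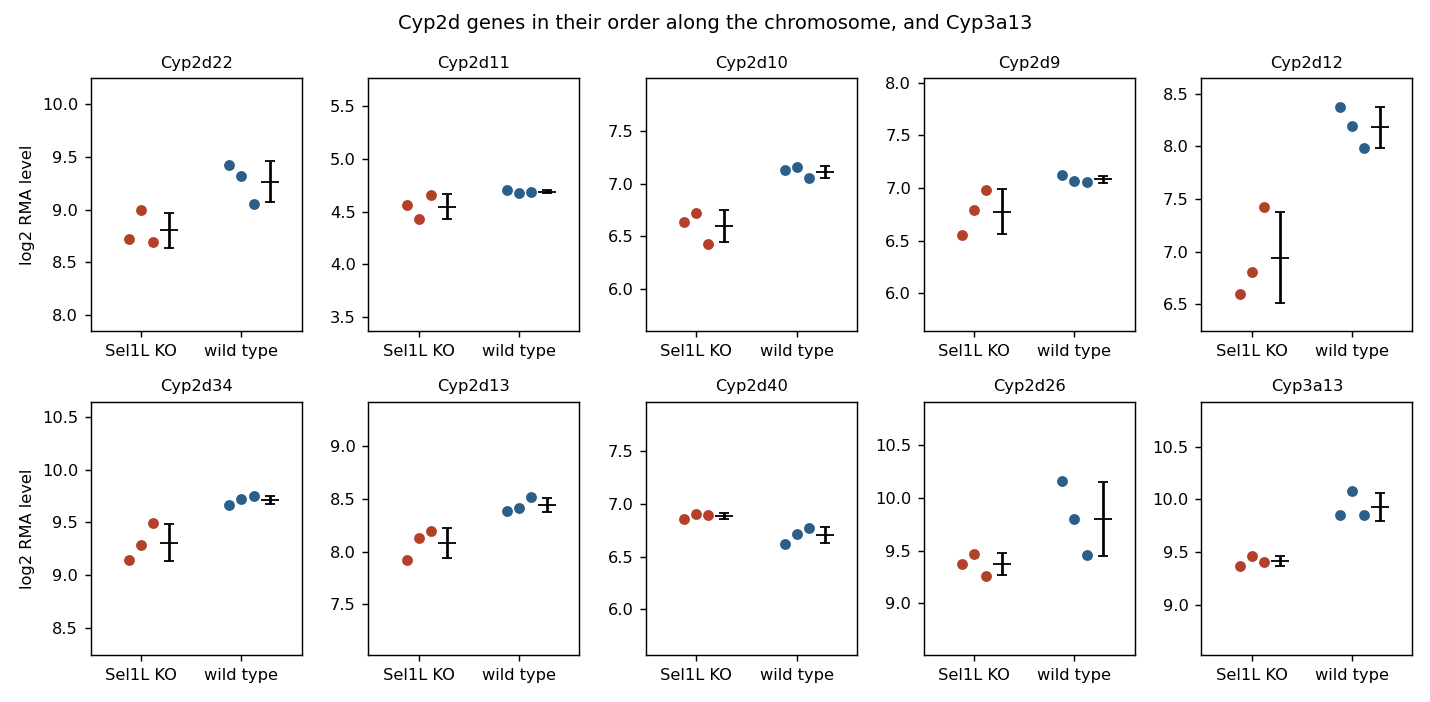
RMA log2 levels (vertical axis) of the 9 Cyp2d genes in their order along the chromosome, and of Cyp3a13. Red points are knockout arrays and blue points wild type arrays, black marks give the mean and SD of 3 arrays, and every panel spans the same log2 range. Knockout points lie below wild type points in all panels except those of Cyp2d40, where they lie above, and Cyp2d26, where they overlap.

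Within the knockout the Cyp2d genes did not share one array order. Cyp2d9, Cyp2d12, Cyp2d34 and Cyp2d13, which follow each other among the measured genes, were lowest in knockout array 1 and highest in knockout array 3. Cyp2d22, Cyp2d10 and Cyp2d26 were lowest in knockout array 3. Sequences of Cyp2d genes are similar, so a probe set may also read transcripts of a paralog, and the fall of Cyp2d12 and Cyp2d10 cannot be assigned to those transcripts alone from these values.

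Markers of absorptive colonocytes were also lower. Of their 10, 3 were called lower and 9 differed negatively, with a median of -0.38 and with Aqp8 (-0.80 ± 0.14), Scnn1b (-0.64 ± 0.10) and Ms4a12 (-0.62 ± 0.08) called. With an array left out these 3 calls held in 2, 1 and 3 of 6 fits. Their summed level was 14.96 to 15.11 on the log2 scale in knockout arrays and 15.13 to 15.39 in wild type arrays. Summed levels of 2 further marker lists were lower without overlap, each through 1 called gene. Neutrophil and mast cell markers summed to 11.03 to 11.46 in knockout arrays and 11.96 to 12.31 in wild type arrays, with 2 of 8 above the array median. Ly6g alone was called among them (-1.09 ± 0.15, adjusted p = 0.014), and their median difference was 0.09. Pancreatic acinar markers summed to 8.97 to 9.09 in knockout arrays and 9.30 to 9.53 in wild type arrays, with 2 of 5 above the array median, Cela1 alone called (-0.68 ± 0.08, adjusted p = 0.0099) and a median difference of 0.00. The part of these markers in the Cyp2d result was not tested. In samples of whole epithelium, fewer cells of a type and less RNA per cell cannot be told apart. Goblet cell markers had summed levels of 15.48 to 15.54 in knockout arrays and 15.45 to 15.54 in wild type arrays, with none of 6 called.

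Cyp3a13 was the lone Cyp3a gene above the array median and is a Cyp3a enzyme of mouse intestine, a subfamily whose inducible members answer to PXR. It read 9.37, 9.47 and 9.41 in knockout arrays, against 9.85, 10.08 and 9.85 in wild type arrays. The groups were apart by several times the spread within the knockout, and the wild type mean was 1.43-fold higher (difference -0.51 ± 0.08, limma's adjusted p = 0.020). The other 5 Cyp3a genes were not called. Cyp3a44 read 4.81, 4.20 and 4.50 in knockout arrays, against 3.97, 3.92 and 4.18 in wild type arrays (0.48 ± 0.14, adjusted p = 0.18), without overlap but far below the array median. Probe sets shared by Cyp3a44 and other Cyp3a genes did not show this rise. They differed by -0.02 ± 0.06 and -0.06 ± 0.07 in a fit of all probe sets together. Cyp3a11, the main PXR-inducible form of mouse liver, read between 3.02 and 3.27 over all arrays and differed by -0.03 ± 0.08. The remaining Cyp3a genes, all low, ran from -0.17 (Cyp3a57) to 0.21 (Cyp3a16).

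Not every one of the 3 member calls held with an array left out. Over all genes, 325 calls became 69 to 303 in such fits, and why calls were lost was not tested. With each array left out in turn, Cyp2d10 stayed called in 3 of 6 fits (without knockout array 2, knockout array 3 or wild type array 3), Cyp2d12 in 2 (without knockout array 3 or wild type array 3) and Cyp3a13 in 1 (without wild type array 3). The adjusted p otherwise reached at most 0.10, 0.092 and 0.094, and all 3 differences stayed negative. In a fit of all probe sets together, chosen after seeing the data, none of the 3 was called, with adjusted p values of 0.082, 0.089 and 0.070.

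Cyp2c enzymes oxidise drugs and arachidonic acid, and none of the 13 genes was called. Cyp2c67 and Cyp2c68, which follow each other on chromosome 19, stood apart from the rest. Cyp2c68 read 6.44, 6.88 and 6.24 in knockout arrays, against 6.93, 7.30 and 7.54 in wild type arrays (-0.74 ± 0.19, adjusted p = 0.12). Cyp2c67 read 4.28, 4.18 and 4.07 in knockout arrays, against 4.47, 4.70 and 4.92 in wild type arrays (-0.52 ± 0.11, adjusted p = 0.067). Both were lower in every knockout array than in any wild type array, and Cyp2c67 was called with an intensity trend in the variance prior (adjusted p = 0.044) and without wild type array 1 (adjusted p = 0.049). A probe set assigned jointly to Cyp2c40, Cyp2c67, Cyp2c68 and Cyp2c69, which belongs to no member, read 7.19, 7.70 and 7.45 in knockout arrays, against 7.77, 7.79 and 8.06 in wild type arrays. In the fit of all probe sets it differed by -0.43 ± 0.15 (adjusted p = 0.32), and its groups did not overlap. Since that set is assigned to several Cyp2c genes, the sets of Cyp2c67 and Cyp2c68 may also read paralogs. These readings cannot be counted as separate. The 8 other low Cyp2c genes ran from -0.12 (Cyp2c29, a liver form) to 0.11 (Cyp2c70, which makes muricholic acids), and their groups all overlapped.

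Cyp2c55, an arachidonic acid oxidase of mouse colon, and its neighbours Cyp2c65 and Cyp2c66 varied more within a genotype than between genotypes. Cyp2c55 read 10.92, 11.09 and 10.30 in knockout arrays, against 11.49, 11.22 and 10.05 in wild type arrays, a difference of -0.15 ± 0.35 with a 95% interval from -0.96 to 0.65. Cyp2c65 read 10.70, 10.64 and 10.21 in knockout arrays, against 10.84, 10.78 and 9.75 in wild type arrays (0.06 ± 0.27, interval -0.56 to 0.68). Cyp2c66 read 7.22, 7.25 and 6.89 in knockout arrays, against 7.44, 7.20 and 6.37 in wild type arrays (0.12 ± 0.24, interval -0.44 to 0.67). In all 3 genes wild type array 3 was the lowest of all arrays and knockout array 3 the lowest of its genotype. The intervals include a 1.5-fold difference in either direction for Cyp2c55, so this fit sets no narrow limit on it. With replicate number added as a block the SE of Cyp2c55, Cyp2c65 and Cyp2c66 were smaller. They were 0.14, 0.12 and 0.13, and none of these genes was called. Cyp4b1, known from lung, showed the same array order, at 7.68, 7.61 and 7.19 in knockout arrays, against 8.63, 7.88 and 6.96 in wild type arrays (-0.33 ± 0.35, adjusted p = 0.76). Fabp2, an intestinal fatty acid binding protein gene from the list of small intestine markers, was also lowest in wild type array 3, at 11.19, 11.26 and 10.83 in knockout arrays, against 11.01, 11.14 and 10.22 in wild type arrays. The list's 10 markers, of which 4 lay above the array median, summed to 11.40 to 11.79 on the log2 scale in knockout arrays and 11.01 to 11.68 in wild type arrays. Their part in the spread of these P450 genes was not tested.

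Some members with a liver role also differed between arrays of a genotype, and others less so. Cyp3a11 and Cyp2c29, both liver forms, had ranges of 0.25 and 0.28 over all arrays, below the members' median of 0.43. Both were low, with means of 3.15 and 4.26 against an array median of 6.34. Whether the low level narrowed their ranges was not tested. Cyp2e1, the ethanol oxidase, read 5.32, 5.35 and 7.14 in knockout arrays, against 7.00, 5.80 and 6.35 in wild type arrays (-0.45 ± 0.48, adjusted p = 0.76), and its range of 1.82 was the widest of the 65. Cyp4a10 read 4.97, 4.99 and 5.69 in knockout arrays, against 5.56, 4.75 and 5.26 in wild type arrays. Cyp4a14 read 4.17, 4.21 and 5.14 in knockout arrays, against 5.09, 4.54 and 4.38 in wild type arrays. All 3 were highest in knockout array 3 and wild type array 1 of their genotypes. The same held for 7 of the 9 hepatocyte markers measured, 17 of the 65 members, Cyp2d12 among them, and 14.6% of all genes. Alb, the albumin gene, read 6.37, 6.48 and 9.54 in knockout arrays, against 9.87, 7.57 and 8.46 in wild type arrays. Summed hepatocyte markers gave 10.64 to 11.46 on the log2 scale in knockout arrays and 10.80 to 11.40 in wild type arrays, with 6 of 9 above the array median. Their part in the levels of Cyp2e1, Cyp4a10 and Cyp4a14 was not tested. Without the pair of arrays with the highest Alb, an alternative chosen after seeing the data, Cyp2d12 was the only member called (-1.38, adjusted p = 0.025), out of 24 genes in all. Cyp2d10 and Cyp3a13 then differed by -0.43 (adjusted p = 0.16) and -0.55 (adjusted p = 0.14).

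**Figure D3:**
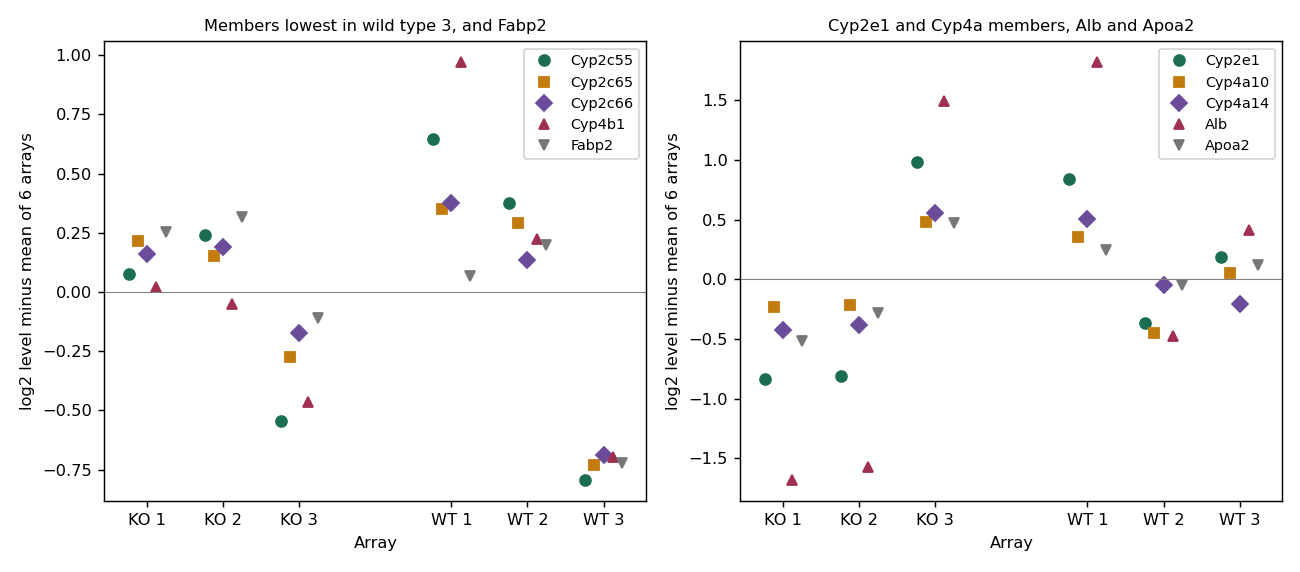
RMA log2 level minus the mean of all arrays (vertical axis) for each array (horizontal axis, KO knockout and WT wild type, replicates in no order). Left, Cyp2c55, Cyp2c65, Cyp2c66, Cyp4b1 and the marker Fabp2, all lowest in wild type array 3. Right, Cyp2e1, Cyp4a10, Cyp4a14 and the hepatocyte markers Alb and Apoa2, all highest in knockout array 3 and wild type array 1 of their genotypes.

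In Cyp4f, whose enzymes hydroxylate leukotrienes and fatty acids at their end, none of 8 genes was called. Cyp4f16 read 8.88, 9.06 and 9.04 in knockout arrays, against 9.49, 9.37 and 9.28 in wild type arrays (-0.39 ± 0.08, adjusted p = 0.059). Its groups were apart, and it was called after median centring of the arrays (adjusted p = 0.033), without the dimmest 25% or 50% of genes (0.038 and 0.023) and with an intensity trend (0.019). Cyp4f13 read 9.70, 9.88 and 9.73 in knockout arrays, against 10.06, 9.93 and 9.93 in wild type arrays, without overlap (-0.20 ± 0.07, adjusted p = 0.27). Cyp4f40 (-0.20 ± 0.10) and Cyp4f14 (-0.08 ± 0.12) overlapped between genotypes. Cyp4f18, which inactivates leukotriene B4 in mouse neutrophils, lay below the array median and differed by 0.22 ± 0.10 (adjusted p = 0.41). Cyp4a31 differed by 0.30 ± 0.12 (adjusted p = 0.32) at a low level with overlapping groups, and Cyp4x1 by -0.13 ± 0.10. Cyp4f15, Cyp4f37 and Cyp4f39 lay between -0.06 and 0.12, with overlapping groups.

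Among the remaining family 2 genes, Cyp2f2, the naphthalene oxidase of mouse lung, read 8.70, 8.72 and 8.91 in knockout arrays, against 8.93, 8.95 and 9.15 in wild type arrays (-0.23 ± 0.09, adjusted p = 0.28). Cyp2s1, an enzyme of surface epithelia, read 10.16, 10.24 and 10.05 in knockout arrays, against 10.38, 10.24 and 10.37 in wild type arrays (-0.18 ± 0.07, adjusted p = 0.33). Cyp2f2 separated the genotypes by a narrow margin, and Cyp2s1 did not. Cyp2j6, of the arachidonic acid epoxygenases, differed by -0.20 ± 0.09 (adjusted p = 0.41), and Cyp2w1, known from human colon tumours, by -0.18 ± 0.12 (adjusted p = 0.57). Cyp2r1, a vitamin D 25-hydroxylase, differed by -0.06 ± 0.09, with an interval from -0.26 to 0.14 that leaves out a 1.5-fold difference. Cyp2u1, a fatty acid hydroxylase just under the array median, differed by 0.17 ± 0.09 (adjusted p = 0.46). The 5 Cyp2b genes, drug oxidases of which Cyp2b10 answers to CAR, were all below the median, with Cyp2b23 at 0.22 ± 0.08 (adjusted p = 0.27) and groups that did not overlap. The other Cyp2b genes ran from -0.06 (Cyp2b10) to 0.07 (Cyp2b9), and the 5 low Cyp2j genes from -0.08 (Cyp2j9) to 0.10 (Cyp2j13). Cyp2a12 (-0.16 ± 0.08), Cyp2a22 (-0.08 ± 0.08), Cyp2g1 (0.07 ± 0.08) and Cyp2t4 (0.12 ± 0.07) were likewise low and not called. The map of the 23 members above the median shows how far each array lay from the wild type mean.

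**Figure D4:**
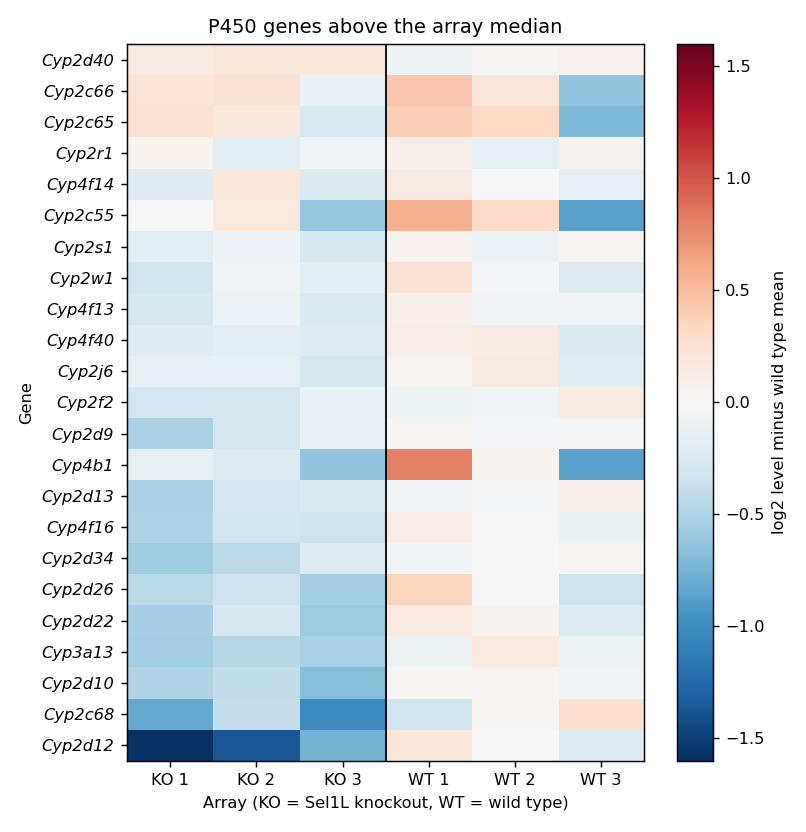
Level of each of the 23 P450 genes above the array median in each array, as log2 level minus the wild type mean (colour), with genes ordered by the difference between genotypes. Blue cells fill the knockout columns of Cyp2d12, Cyp2c68, Cyp2d10, Cyp3a13, Cyp2d22, Cyp2d26, Cyp2d34, Cyp4f16 and Cyp2d13, among others. Cyp2c55, Cyp2c65, Cyp2c66 and Cyp4b1 show their darkest blue in wild type array 3.

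Family 1, the AHR-driven oxidases of polycyclic aromatic compounds, stayed below the array median throughout. Cyp1a1 read 4.84, 4.72 and 4.87 in knockout arrays, against 4.89, 5.05 and 4.77 in wild type arrays, with overlap (-0.09 ± 0.08, adjusted p = 0.71), and Cyp1a2 differed by 0.20 ± 0.10. Cyp1b1 read 4.85, 4.73 and 4.91 in knockout arrays, against 4.49, 4.57 and 4.64 in wild type arrays (0.26 ± 0.07, adjusted p = 0.15), without overlap and without a call.

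Genes around the P450 system were read from 7 lists. Of their 142 measured genes 3 were called, against 1.63% of all genes. At an unadjusted p under 0.05 stood 13.3% of all genes, 5.62% lower and 7.72% higher. Of 21 measured nuclear and xenobiotic receptors none was called, with a median difference of -0.03, and 1 was higher and 1 lower at an unadjusted p under 0.05. These were Rxrb, a partner of many receptors (0.20 ± 0.06, adjusted p = 0.20), and Nr1i2, which encodes PXR and read 9.42, 9.54 and 9.47 in knockout arrays, against 9.71, 9.57 and 9.63 in wild type arrays (-0.16 ± 0.07, adjusted p = 0.35). Ahr (0.02 ± 0.07), Hnf4a (-0.09 ± 0.07), Nr1i3, the gene of CAR (-0.10 ± 0.09), and Ppara (-0.04 ± 0.13) did not pass the test. Por, the gene of P450 reductase, was not analysed here. None of the 8 measured genes of cytochrome b5, its reductases and related heme-binding proteins was called (median 0.07), with Cyb5a, the cytochrome b5 gene, at 0.12 ± 0.06. Among 14 heme genes (median 0.06) none was called and 3 had an unadjusted p under 0.05, all higher. They were Hmox1, the heme oxygenase (0.40 ± 0.08, adjusted p = 0.066), Cpox, of heme synthesis (0.41 ± 0.09, adjusted p = 0.074), and Slc25a38, a mitochondrial carrier (0.20 ± 0.07, adjusted p = 0.24). Alas1, which opens heme synthesis, differed by 0.14 ± 0.11.

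Of 21 eicosanoid and epoxide enzymes (median 0.02) 1 rose, Ptges, a prostaglandin E synthase, at 7.08, 7.43 and 7.20 in knockout arrays, against 6.59, 6.57 and 6.75 in wild type arrays (0.60 ± 0.10, limma's adjusted p = 0.026). Of 17 transporters (median -0.07) 1 fell, Slc15a1, the intestinal peptide transporter, at 9.43, 9.93 and 9.61 in knockout arrays, against 10.36, 10.61 and 10.34 in wild type arrays (-0.78 ± 0.13, adjusted p = 0.026). Among 45 conjugating enzymes (median 0.03) 1 rose, Gstp3, a glutathione transferase, at 7.41, 7.43 and 7.37 in knockout arrays, against 6.51, 6.62 and 6.98 in wild type arrays (0.70 ± 0.11, adjusted p = 0.024). The groups did not overlap in these 3 genes. With each array left out in turn, Ptges and Gstp3 stayed called only without wild type array 3, and Slc15a1 only without knockout array 2 or wild type array 3. None of 16 P450 genes of other families was called (median 0.05), with Cyp27a1, a sterol 27-hydroxylase, at -0.40 ± 0.13 (adjusted p = 0.22).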

How the data were processed

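Total RNA of colon epithelium was hybridised to Affymetrix arrays, 3 from Sel1L knockout and 3 from wild type mice. The deposited log2 values were made by the authors with RMA, per the submitters' processing notes; the sources used here do not give its software, version or genome build. Of 35556 probe sets, 21789 carried 1 gene, 1621 several and 12146 none in the platform annotation. Symbols were updated through RefSeq (GRCm38.p6) for 21698 probe sets by gene identifier and 3 by accession, and 88 kept the annotation's symbol. For each of 19936 genes the probe set of highest mean level was used. No member had more than 1 probe set, and 7 P450 probe sets assigned to several genes were left out.

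limma 3.58.1 in R 4.3.3 compared the genotypes over all genes (lmFit and eBayes, Benjamini-Hochberg adjustment, 95% intervals); Python 3.11.15 with pandas 2.3.3 summarised the values. The number of arrays limits the precision. In simulated data of 19936 genes, limma called 93% of genes given a log2 change of 0.5 and 99% of those given 1, and 5.88% of its calls were unchanged genes. The simulation drew independent normal noise at limma's moderated SD of each gene and changed 200 genes picked at random. Across the real arrays the median range was 0.431 over the members and 0.271 over all genes. These shares therefore do not say how often a change in a member would be called. Members and gene lists were chosen with earlier results of these data known. Named were members that were called, had an unadjusted p under 0.05 or lay above the array median, and the highest member of any other subfamily; some others are given for their known role. Partner genes named were those called or, in lists with none, up to 3 with the smallest p, plus a few regulators. Promoter windows are RefSeq's.

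Replicate numbers were checked for pairing: same-numbered arrays' deviations correlated at -0.104, 0.151 and 0.153. Knockout arrays 1, 2 and 3 correlated best with wild type arrays 2, 2 and 3. Because knockout array 1 did not match its own number, the numbers were not taken to pair samples. Alternatives were a replicate block, quantile normalization, median centring, filters on dim genes, an intensity trend, a robust prior, array weights, averaging the probe sets of each gene and leaving out each array. Leaving out both arrays with the highest Alb and testing all probe sets together were added after seeing the data.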

Additional observations from a re-analysis of the deposited data

How the results depend on the processing

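The 3 P450 genes called in the reported fit differed negatively in every alternative run, though they were not called in each. No member was called higher in any. Members called, 3 in the reported fit, were 2 with the replicate block (Cyp2d12 had adjusted p = 0.057), 4 after median centring or without the dimmest 25% of genes, 6 without the dimmest 50%, 7 with an intensity trend, 0 to 3 with an array left out, 1 without both arrays with the highest Alb and 0 in the test of all probe sets. Over all genes, 325 were called in the reported fit, 217 with the replicate block, 598 without the dimmest 50%, 614 with an intensity trend, 69 to 303 with an array left out and 24 without the highest-Alb arrays. Called partner genes, 3 in the reported fit, were 5 and 9 without the dimmest 25% and 50%, 7 with an intensity trend, 0 to 6 with an array left out, 0 without the highest-Alb arrays and 0 in the test of all probe sets. Sel1l differed by -0.72 (adjusted p = 0.13) without the highest-Alb arrays, by -0.74 (adjusted p = 0.073) in the test of all probe sets and by -0.87 to -0.67 with an array left out. The members' median was -0.23 above the array median alone and -0.11 to -0.0058 with an array left out. Non-overlapping members above the median numbered 12 of 23 (11 lower and 1 higher). Over all 10914 genes above it, 1321 were lower and 1490 higher without overlap. With an array left out, 21 to 30 members did not overlap. Smaller groups overlap less often in any gene, and the share over all genes was not counted there.

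Of 35 named members 30 kept their sign throughout. Those that turned were never called. With an array left out, Cyp2c55 ran from -0.58 to 0.13 (positive without knockout array 3 or wild type array 1), Cyp2c65 from -0.29 to 0.25 (negative without knockout array 1 or wild type array 3), Cyp2c66 from -0.20 to 0.33 (negative without wild type array 3) and Cyp4b1 from -0.76 to 0.071 (positive without wild type array 1). Without the highest-Alb arrays, Cyp2c55 differed by 0.37, Cyp4b1 by 0.22 and Cyp4f14 by 0.071. The filters tested fewer genes, and the fits with an array left out used fewer arrays. Why calls changed under the filters, the left-out arrays or the intensity trend was not tested.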

Other observations

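Probe sets assigned to several P450 genes, and P450 genes just outside the naming pattern, extended the picture to members of the same subfamilies without adding a call. In the fit of all probe sets, the set shared by Cyp2a4 and Cyp2a5, steroid and coumarin hydroxylases, differed by -0.02 ± 0.08 (adjusted p = 0.96). The set shared by Cyp4a10, Cyp4a31 and Cyp4a32 read 3.87, 3.65 and 4.37 in knockout arrays, against 4.53, 3.63 and 4.19 in wild type arrays (-0.16 ± 0.27, adjusted p = 0.88), and was, like Cyp4a10 itself, highest in knockout array 3 and wild type array 1 of its genotype. The 3 sets shared by several Cyp3a genes, among them the members Cyp3a11, Cyp3a25, Cyp3a44 and Cyp3a57, read between 3.03 and 3.36 on every array. Their differences ran from -0.07 to -0.02. Cyp4a12a, a fatty acid hydroxylase with higher levels in male mouse kidney, read 3.40, 3.57 and 3.60 in knockout arrays, against 3.71, 3.64 and 3.65 in wild type arrays (-0.14 ± 0.07, adjusted p = 0.46). Cyp4a12b differed by -0.13 ± 0.14 and Cyp2ab1 by 0.16 ± 0.09. The pseudogene Cyp4f41-ps, below the array median, differed by 0.05 ± 0.09.

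The range over all arrays exceeded 1 on the log2 scale in 7 members, Cyp2e1, Cyp2d12, Cyp4b1, Cyp2c55, Cyp2c68, Cyp2c65 and Cyp2c66, and its median was 0.431 over the members and 0.271 over all genes. Wild type array 3 was the lowest of all arrays in 13 of the 65 members, against 14.4% of all genes. Neither comparison was tested.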
